A study of Mus musculus with 8 samples.

Results

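The endoplasmic reticulum (ER) stress genes described here are 35 members of the unfolded protein response and the integrated stress response, measured in the soleus, a slow postural muscle of the mouse hind limb. The members were listed by name and found on the array by gene symbol, with no measured value used in the choice, and all 35 were measured among 22271 genes tested. All 8 mice were male C57BL/6J mice aged 14 weeks, fed High-fat diet 32 with the experiment begun at 8 weeks of age, and 1 Agilent single-colour array was made from 200 ng of muscle RNA of each sample. The 4 Pg mice received cells of Porphyromonas gingivalis, a bacterium of human periodontal disease, by feeding needle in 100 µL of saline over 6 weeks, and the 4 Co mice received saline alone. No group on another diet was analysed here, so the high-fat diet is shared by every array.

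The direction of every difference below follows the sample records, and it is not settled. Each of the 8 columns of the authors' deposited table matched the array of the other group with the same number (correlation over 28135 probes 0.861 to 0.898) and not its own (-0.328 to -0.0539). If the column names of that table are the right ones, every sign below is turned. The 4 Pg arrays lay on one side of the slide and the 4 Co arrays on the other, so side and group cannot be told apart.

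The ER folds secreted and membrane proteins, and when unfolded proteins build up its sensors Ern1 (IRE1), Eif2ak3 (PERK) and Atf6 signal to the nucleus. Ern1 splices the mRNA of the factor Xbp1, Atf6 is cut to release a transcription factor, and Eif2ak3 phosphorylates eIF2, which slows translation in general while that of Atf4 rises, the step shared with the integrated stress response. Muscle fibres carry a specialised ER, the sarcoplasmic reticulum, and the response is known to be engaged in muscle by exercise, denervation and lipid overload. The arrays measured RNA, so splicing of Xbp1, cleavage of Atf6 and phosphorylation of eIF2 were not analysed here.

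The promoter sequences of the members are shown first because they hold the elements through which the ER factors and the ATF4 arm are known to act, and an array pattern described later is given by element. Windows from 250 bases before to 50 after each RefSeq transcription start (GRCm38.p6) were searched on both strands for the ER stress response element (ERSE, CCAAT and CCACG with 9 bases of any kind between them), for its variant (ERSE-II, ATTGG and CCACG with 1 base between them), for the unfolded protein response element TGACGTGG and for TGATGNAA, the core of the C/EBP-ATF response element (CARE). ERSE and ERSE-II end in the same letters, CCACG, whose other strand, CGTGG, also ends the unfolded protein response element. A window was matched for 30 of the 35 members, and none for Atf6, Derl1, Hyou1, Manf and Ppp1r15b. ERSE was found in 9 members (Hspa5, Hsp90b1, Dnajc3, Creld2, Calr, Canx, Pdia6, Derl3 and Syvn1). That is 30.0% of the 30, against 0.137% of all 27025 genes with a window. ERSE-II was found in Dnajb11 and Herpud1, 6.67% of the members against 0.0444% of genes. CARE was found in Asns, Chac1, Trib3 and Herpud1, 13.3% against 4.51%, and the unfolded protein response element in 0 members against 0.714%. These elements were first defined on genes such as Hspa5 and Asns, so the shares are a description of known promoters and not evidence from the arrays.

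Stretches of 8 promoters follow, 5′ to 3′ on the strand of the gene, with every matched element in capitals. The first 5 hold an ERSE and belong to an ER chaperone (Hspa5), a co-chaperone (Dnajc3), a protein of the ER lumen (Creld2), a disulfide isomerase (Pdia6) and a ubiquitin ligase of ER-associated degradation (Syvn1). Herpud1 holds both a CARE and an ERSE-II, and Asns and Chac1 hold a CARE alone.
Hspa5, chr2:34772013-34772055, plus strand: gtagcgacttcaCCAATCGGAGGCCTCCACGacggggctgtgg
Dnajc3, chr14:118937815-118937857, plus strand: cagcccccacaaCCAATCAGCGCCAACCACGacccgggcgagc
Creld2, chr15:88819508-88819550, plus strand: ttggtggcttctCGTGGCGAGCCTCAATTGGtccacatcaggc
Pdia6, chr12:17266479-17266521, plus strand: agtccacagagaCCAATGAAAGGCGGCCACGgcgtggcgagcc
Syvn1, chr19:6046520-6046562, plus strand: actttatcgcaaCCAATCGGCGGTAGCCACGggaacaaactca
Herpud1, chr8:94386305-94386399, plus strand: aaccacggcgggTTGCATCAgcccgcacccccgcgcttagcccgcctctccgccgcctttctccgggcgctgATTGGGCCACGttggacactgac
Asns, chr6:7693213-7693244, minus strand: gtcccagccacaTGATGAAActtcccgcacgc
Chac1, chr2:119351037-119351068, plus strand: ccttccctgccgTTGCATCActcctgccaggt
In Creld2 the ERSE, and in Chac1 and Herpud1 the CARE, reads on the strand opposite to the gene.

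Levels are given as log2 of the processed spot signal minus the 75th percentile of that array, so a value of 0 is the 75th percentile and a negative value lies under it; a level of one gene is not set against that of another, because probes differ in brightness. Correlations between arrays were 0.987 to 0.989 within Co, 0.993 to 0.995 within Pg and 0.988 to 0.991 between the groups. Probes well above background numbered 30177 to 34076 on the Co arrays and 34853 to 35365 on the Pg arrays, so every Pg array had more. The cause of that difference was not tested. The defining genes of slow fibres, 8 of 8 including Myh7 and Tnni1, were well above background on all arrays, and their summed signal was 3311 to 3494 on the Co arrays and 3699 to 4056 on the Pg arrays (in multiples of the 75th percentile). Fast-fibre markers summed to 2863 to 3292 in Co and 3147 to 4021 in Pg. Of these markers Myh4 varied the most, at 1.95 on Co 1 and 4.03 on Pg 3 against 4.98 to 7.70 on the rest. In whole muscle, fewer cells of a type and less RNA per cell cannot be told apart.

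None of the 35 members passed an adjusted p of 0.05 between Pg and Co (limma, Benjamini-Hochberg adjustment over all genes), where 26 of all 22271 genes did, 0.117%. The measured difference between Pg and Co was under 0.25 in size on the log2 scale for 29 of the 35 members. Most genes also fell under that size, 17074 of all 22271, so the count does not set the members apart. A measured difference under 0.25 does not exclude a larger one, since the 95% interval of Hspa5 (limma) was -0.39 to 0.47. Of the members, 18 were higher in Pg, 51.4% against 47.7% of all genes. The median difference over the members was 0.00 (-0.01 over all genes), and the median size of a difference was 0.08 against 0.13 for all genes. At an unadjusted p under 0.05 there were 5 members, Ddit3, Atf6, Hyou1 and Ppp1r15b higher and Asns lower, which is 14.3% of the members against 19.7% of all genes (10% higher and 9.68% lower). The groups did not overlap for 2 members, Ddit3 and Hyou1, 5.71% against 13.4% of all genes. Both were higher in Pg, where the share of all genes without overlap and higher in Pg was 7.34%. Both shares lay under the background, so neither count sets the members apart.

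Centring each array on its median, in place of the 75th percentile, raised the median difference of all genes by 0.149, and each member with it, and called 10.7% of all genes. In that setting 4 members passed, Ddit3, Hyou1, Atf6 and Ppp1r15b, each by a difference that includes this shift. Ddit3 also passed with normexp background correction (limma adjusted p = 0.0470, where 2.03% of genes passed) and with dim probes left in (limma adjusted p = 0.0486, where 13.9% passed).

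**Figure D1:**
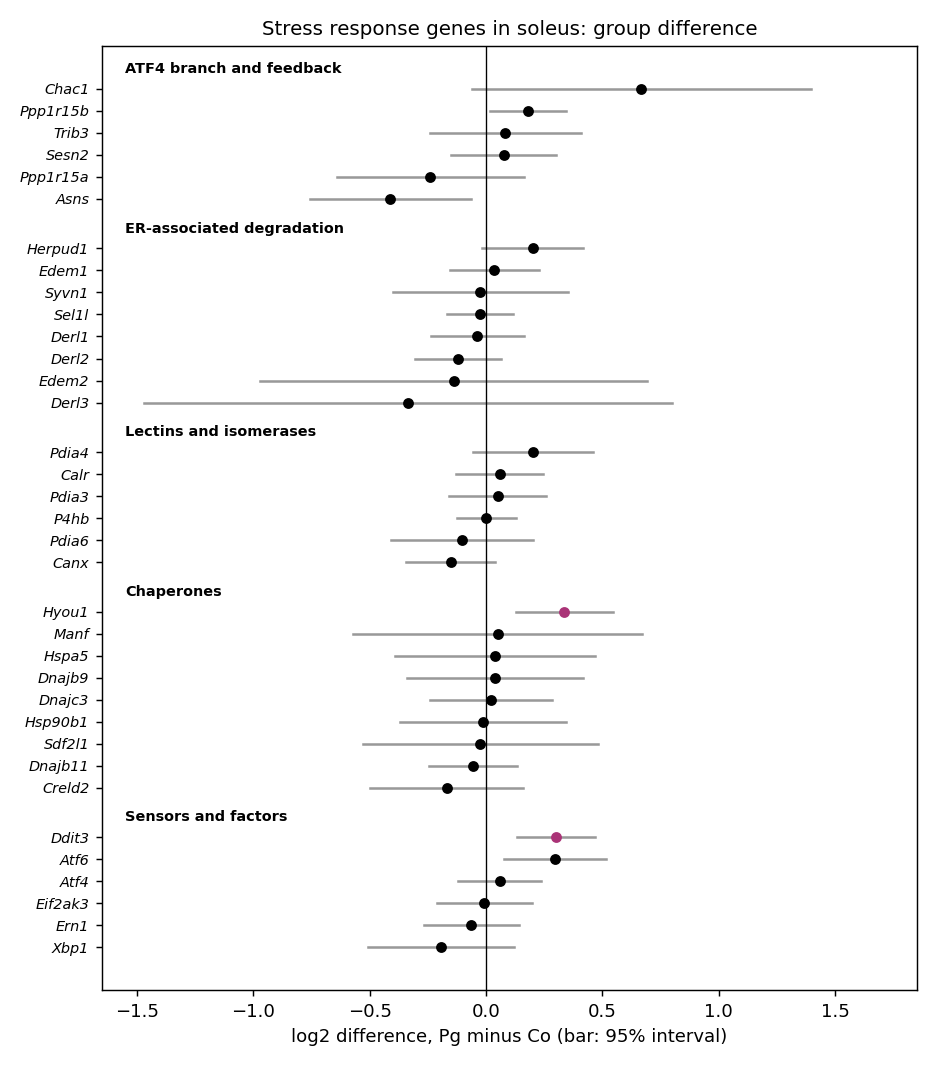
Log2 difference, Pg minus Co, of each of the 35 members, grouped by role, with bars for 95% confidence intervals from limma. Most points lie within 0.25 of 0, Chac1 (0.67) and Asns (-0.41) lie farthest out, and purple marks Ddit3 and Hyou1, whose groups do not overlap.

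Among the sensors and transcription factors (6 members, 3 higher and 3 lower, median difference 0.03), Ddit3 and Atf6 stood highest in Pg relative to Co. Ddit3 encodes CHOP, the factor that links long ER stress to cell death. Its probe (mm9, chr10:126732518-126732821) read 1.13, 0.86, 1.03 and 0.96 on Co arrays 1 to 4 and 1.34, 1.35, 1.30 and 1.20 on Pg arrays 1 to 4. Every Pg array lay above every Co array, with the nearest pair, Pg 4 and Co 1, 0.06 apart on this scale. The difference was 0.30 ± 0.07 (SE, n = 4 and 4; limma adjusted p = 0.101; exact two-sided permutation p = 0.0286, the smallest that 70 assignments allow).

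Atf6, the sensor that is itself cut into a transcription factor, read 1.80, 2.03, 2.05 and 1.84 in Co and 2.35, 2.26, 2.27 and 2.02 in Pg (mm9, chr1:172637679-172637738). The Pg arrays other than Pg 4 lay above all Co arrays, and Pg 4 fell among them. The difference was 0.30 ± 0.09 (limma adjusted p = 0.157, exact permutation p = 0.0857). A second, dim probe of Atf6, well above background on 6 arrays, differed the other way by -0.70 ± 0.35, and the mean of both probes gave -0.20.

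For Ern1, Eif2ak3 and Atf4 the ranges of the groups overlapped. Ern1 read 0.72, 0.48, 0.46 and 0.52 in Co and 0.64, 0.52, 0.32 and 0.44 in Pg (mm9, chr11:106255965-106256024; difference -0.06 ± 0.09, limma adjusted p = 0.719). Eif2ak3 read -1.75, -1.71, -1.60 and -1.85 in Co and -1.77, -1.67, -1.59 and -1.91 in Pg (mm9, chr6:70855152-70855211; difference -0.01 ± 0.09, limma adjusted p = 0.970). In both groups Eif2ak3 was highest on array 3 and lowest on array 4. Atf4, the factor at the centre of the integrated stress response, read 6.64, 6.34, 6.46 and 6.44 in Co and 6.56, 6.62, 6.49 and 6.45 in Pg (mm9, chr15:80087902-80087961; difference 0.06 ± 0.08, limma adjusted p = 0.700).

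Xbp1, the target of Ern1 and the main driver of ER expansion, read 4.66, 4.59, 4.65 and 4.25 in Co and 4.27, 4.57, 4.47 and 4.07 in Pg (mm9, chr11:5425816-5425875). The lowest arrays were Co 4 and Pg 4, and the groups overlapped. The difference was -0.19 ± 0.14 (limma adjusted p = 0.460), while its other probes differed by 0.08 and 0.15.

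**Figure D2:**
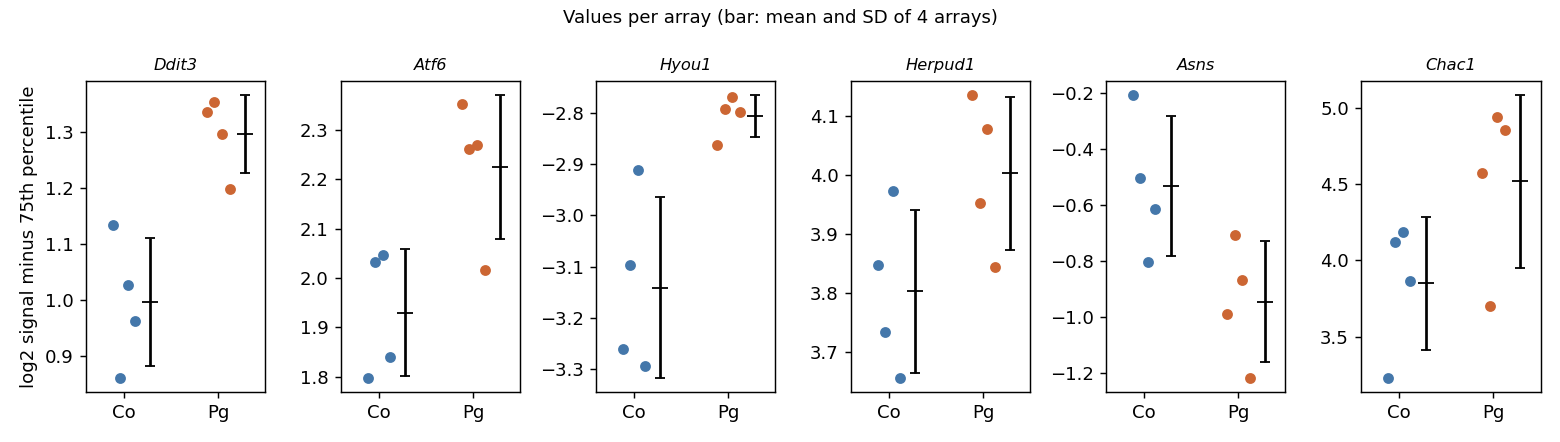
Level (log2 signal minus the 75th percentile of the array) of Ddit3, Atf6, Hyou1, Herpud1, Asns and Chac1, each on its own axis, with a point for each of the 4 Co and 4 Pg arrays and a bar for the mean and SD of the group. Only Ddit3 and Hyou1 of these 6 separate the groups.

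The chaperones and co-chaperones of the ER lumen (9 members, 5 higher and 4 lower, median difference 0.02) had the smallest median size of difference of the role groups, 0.04. Hspa5 encodes BiP, the main ER chaperone, which also holds the sensors inactive. It read 6.25, 6.11, 6.29 and 5.70 in Co and 6.28, 6.30, 6.28 and 5.65 in Pg (mm9, chr2:34631913-34631972). Co 4 and Pg 4 stood far under the other arrays, whose Co and Pg values overlapped. The difference was 0.04 ± 0.19 (limma adjusted p = 0.923, 95% interval -0.39 to 0.47), and it turned to -0.09 without Co 4.

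Hyou1, a large chaperone that exchanges nucleotide on BiP, read -3.26, -3.10, -2.91 and -3.30 in Co and -2.86, -2.79, -2.77 and -2.80 in Pg (mm9, chr9:44199084-44199143). All Pg arrays lay above all Co arrays, by 0.05 at the nearest, and the Co arrays were the more spread. The difference was 0.34 ± 0.09 (limma adjusted p = 0.115, exact permutation p = 0.0286). With normexp background correction the difference was 0.18, and the groups then overlapped. Its other probes did not agree in sign, at 0.47 ± 0.27 and -0.29 ± 0.54, and the groups also overlapped for the mean of its probes, which differed by 0.17.

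Creld2, a small ER protein known as an early target of the response, read 3.04, 3.04, 3.05 and 2.63 in Co and 2.77, 2.75, 3.07 and 2.49 in Pg (mm9, chr15:88656997-88657056). Pg 3 was the highest of all 8 arrays, and Co 4 lay among the other Pg arrays (difference -0.17 ± 0.14, limma adjusted p = 0.541). Dnajb11, a BiP co-chaperone, read 3.21, 3.27, 3.11 and 3.06 in Co and 3.13, 3.19, 3.18 and 2.92 in Pg (mm9, chr16:22872067-22872126; difference -0.06 ± 0.08, limma adjusted p = 0.737). The remaining chaperones, namely Hsp90b1 (GRP94), Dnajb9, Dnajc3, Sdf2l1 and Manf, differed by -0.02 to 0.05, and their 95% intervals reached at most 0.67 from 0 (Manf).

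The lectin chaperones and disulfide isomerases (6 members, 4 higher and 2 lower, median difference 0.03) fold glycoproteins and form their disulfide bonds. Canx, the membrane-bound lectin calnexin, read 4.69, 4.67, 4.56 and 4.49 in Co and 4.42, 4.51, 4.59 and 4.28 in Pg (mm9, chr11:50108537-50108596). Pg 1 and Pg 4 lay under all Co arrays and the others did not (difference -0.15 ± 0.08, limma adjusted p = 0.351). The isomerase Pdia4 read -1.01, -0.83, -0.95 and -1.12 in Co and -0.60, -0.91, -0.61 and -0.99 in Pg (mm9, chr6:47746516-47746575; difference 0.20 ± 0.11, limma adjusted p = 0.359). Pg 1 and Pg 3 lay above all Co arrays, and Pg 2 and Pg 4 among them. Pdia6, which also attenuates Ern1 signalling, read 4.68, 4.73, 4.65 and 4.35 in Co and 4.64, 4.57, 4.63 and 4.16 in Pg (mm9, chr12:17291070-17291129; difference -0.10 ± 0.13, limma adjusted p = 0.688). Calr (calreticulin), Pdia3 and P4hb differed by 0.06, 0.05 and 0.00, and the interval of P4hb, -0.13 to 0.13, was the narrowest of the 35.

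ER-associated degradation (8 members, 2 higher and 6 lower, median difference -0.03) draws misfolded proteins out of the ER to the proteasome. Herpud1, an adaptor of the Syvn1 ubiquitin ligase that is a known target of the ER and ATF4 arms alike, read 3.85, 3.73, 3.97 and 3.66 in Co and 4.14, 3.95, 4.08 and 3.85 in Pg (mm9, chr8:96919117-96919176). Pg 1 and Pg 3 lay above all Co arrays, and the other Pg arrays between Co values. The difference was 0.20 ± 0.09 (limma adjusted p = 0.282, exact permutation p = 0.143), and 0.32 for the mean of its probes.

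Derl2 and Derl3 belong to the derlins, which are part of the channel through which proteins leave the ER. Derl2 read 2.95, 2.93, 2.99 and 2.85 in Co and 2.87, 2.89, 2.87 and 2.59 in Pg (mm9, chr11:70823456-70823515; difference -0.12 ± 0.08, limma adjusted p = 0.438). Only Co 4 kept the groups from separating. Derl3 was dim, well above background on 3 of 4 Co arrays and all 4 Pg arrays, and read -4.47, -3.50, -3.68 and -5.59 in Co and -5.05, -4.78, -3.78 and -4.98 in Pg (mm9, chr10:75358606-75358665; difference -0.33 ± 0.49, limma adjusted p = 0.733). The other 34 members were well above background on all 8 arrays. Sel1l, Syvn1, Derl1 and Edem1 differed by -0.04 to 0.04, and Edem2 by -0.14 ± 0.36 with 1 Co array apart from the rest.

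The targets and feedback genes of the integrated stress response (6 members, 4 higher and 2 lower, median difference 0.08) held the widest differences, in both directions. Chac1, which breaks down glutathione and lies downstream of ATF4, read 3.23, 4.12, 4.19 and 3.86 in Co and 4.57, 3.70, 4.94 and 4.85 in Pg (mm9, chr2:119179990-119180049). Of the Pg arrays, 1, 3 and 4 lay above all Co arrays and Pg 2 under all Co arrays but Co 1. The difference was 0.67 ± 0.32, a 1.59-fold higher mean in Pg (limma adjusted p = 0.288, exact permutation p = 0.143). It was 0.46 to 0.94 when 1 array was left out, the highest without Pg 2, and 0.32 without Co 1 and Pg 3.

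Asns, asparagine synthetase and a classical ATF4 target, read -0.21, -0.50, -0.80 and -0.62 in Co and -0.99, -0.71, -0.87 and -1.22 in Pg (mm9, chr6:7625171-7625228). Pg 2 lay above Co 3, and the other Pg arrays under all Co arrays. The difference was -0.41 ± 0.15 (limma adjusted p = 0.193, exact permutation p = 0.0571), opposite in sign to Chac1, and a dimmer Asns probe differed by -0.03 ± 0.17. Chac1 and Asns both hold a CARE in the promoter stretches printed above.

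Ppp1r15b, a subunit of the phosphatase that reverses eIF2 phosphorylation, read 0.16, -0.06, -0.01 and -0.06 in Co and 0.23, 0.10, 0.28 and 0.15 in Pg (mm9, chr1:135035870-135035929). Co 1 lay above Pg 2 and Pg 4, and the other Co arrays under all Pg arrays (difference 0.18 ± 0.07, limma adjusted p = 0.217, exact permutation p = 0.0857). Its stress-induced counterpart Ppp1r15a (GADD34) differed by -0.24 ± 0.17 (limma adjusted p = 0.48). The pseudokinase Trib3 and the sestrin Sesn2, also ATF4 targets, each differed by 0.08.

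Within the groups, the members varied together on the arrays numbered 4. This was seen in the values and is given as a description, with no test. For 20 of the 35 members the lowest Co array was Co 4 and the lowest Pg array was Pg 4, 57.1% against 12.5% of all genes (2778). The chaperones did so in 8 of 9 cases, all but Hyou1, the lectins and isomerases in 5 of 6, the degradation genes in 4 of 8, the sensors and factors in 2 of 6 and the integrated stress response genes in 1 of 6. The median deviation of the chaperones from the mean of all 8 arrays was -0.29 on Co 4 and -0.38 on Pg 4, against 0.01 to 0.18 on the other arrays. Of the 11 members with an ERSE or ERSE-II, 10 were lowest on both arrays, against 9 of the 19 members with a promoter window and neither element. Element and role overlap, since most members with an element were chaperones, lectins or isomerases. In these roles Dnajb9, Sdf2l1, Pdia3 and Pdia4, with a window and neither element, were also lowest on both, and P4hb was not. The part of the element was not tested. Among other genes with either element, 6 of the 19 measured were lowest on both, and 11.7% of all genes with a window.

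Beside this pattern, the fibroblast markers (8 of 8 measured) summed to 203 on Co 4 and 209 on Pg 4, the highest of each group (the rest 150 to 189 in Co and 142 to 206 in Pg). Endothelial markers (8 of 8) summed to 56.5 on Co 4, within the Co range of 53.3 to 57.1, and to 48.4 on Pg 4, the highest of Pg (the rest 41.8 to 45.5). The sum of the neutrophil markers (5 of 6) was lowest on Co 4 (71.2, the rest 78.1 to 84.9) and Pg 4 (58.9, the rest 61.1 to 73.9). That sum was mostly Csf3r, the only one of these markers lowest on both arrays. S100a8, S100a9 and Ly6g were lowest of Co on Co 3, and Cxcr2 on Co 1. Red blood cell sums were 1099 on Co 4, the highest of Co, and 846 on Pg 4, within the Pg range. Macrophage sums were 71.9 on Co 4, within the Co range, and 58.9 on Pg 4, beside 58.7 on Pg 3. Itgam made up most of the Pg 4 sum. The median deviation of the macrophage markers from the mean of all 8 arrays was higher on Pg 3 (0.115) than on Pg 4 (0.076). Slow-fibre, fast-fibre, adipocyte and Schwann cell sums were neither highest nor lowest of their group on Co 4 or Pg 4. Markers of plasma and B cells, which secrete heavily, were dim, with 5 of 9 measured. They summed to 0.302 to 0.832 in Co and 0.322 to 0.365 in Pg. The lowest sum, on Co 1, lacks Cd79b, which had no value there. Jchain, Tnfrsf17, Cd79a and Pou2af1 did not pass the filter. Arrays of the same number lay at the same position on the slide. The part of any of these in the pattern was not tested. With both arrays numbered 4 left out, 0 members passed an adjusted p of 0.05 (limma; 0.0225% of all genes passed) and 6 members had groups that did not overlap, where 23.5% of all genes did.

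**Figure D3:**
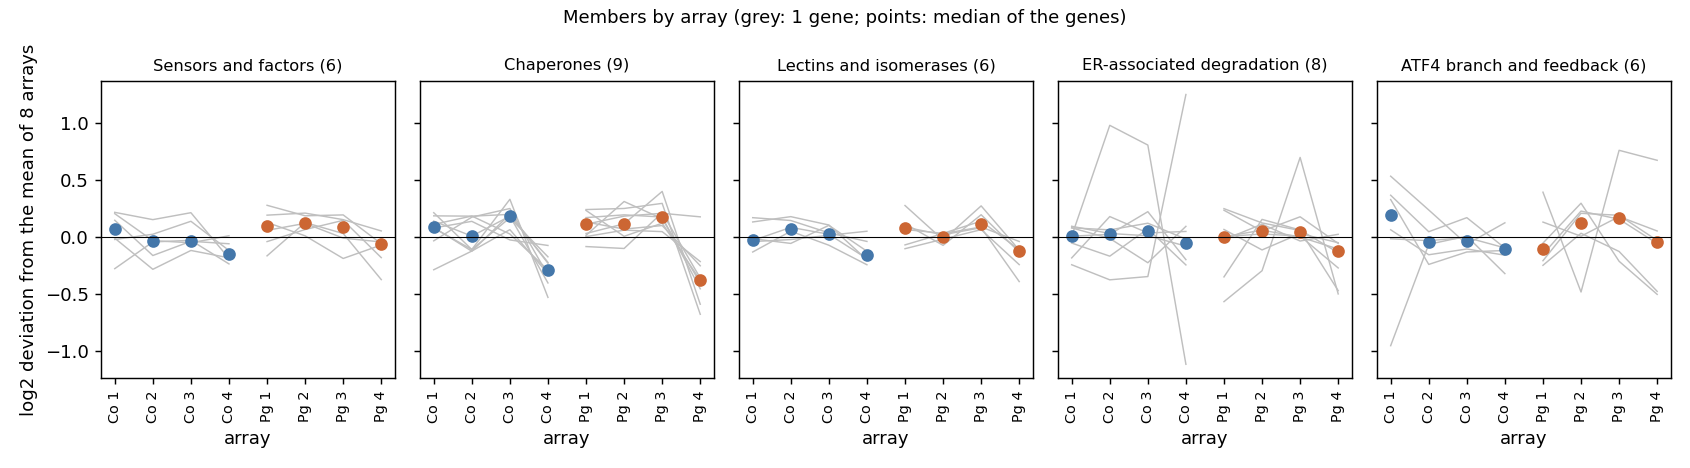
Log2 deviation from the mean of all 8 arrays on each array, in a panel for each role group, with a grey line for each member and a point for the median of the members. The median of the chaperones falls to -0.29 on Co 4 and -0.38 on Pg 4.

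For 20 of the members more than 1 probe was kept, and their 25 other probes were tested among all 33748 kept probes, of which 0.163% passed an adjusted p of 0.05. None of the 25 passed (limma). A second probe of Atf4 differed by 0.32 ± 0.06 and one of Herpud1 by 0.43 ± 0.10 (limma adjusted p = 0.0658 and 0.0792), both with groups that did not overlap, against 0.06 and 0.20 for the brighter probes used above. Second probes of Dnajb9 and Sel1l differed by 0.42 ± 0.17 and 0.50 ± 0.19 (limma adjusted p = 0.229 and 0.193), against 0.04 and -0.02. That Sel1l probe was well above background on 4 arrays only, and a brighter one, above it on all 8, differed by 0.09 ± 0.07. These 4 probes, chosen after their values were seen, were all higher in Pg. For 6 members, Atf6, Edem2, Ern1, Hyou1, Sel1l and Xbp1, the probes differed in sign. The second Ddit3 probe differed by 0.16 ± 0.12, and the other Hspa5 probes by 0.16 ± 0.21 and 0.27 ± 0.18.

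**Figure D4:**
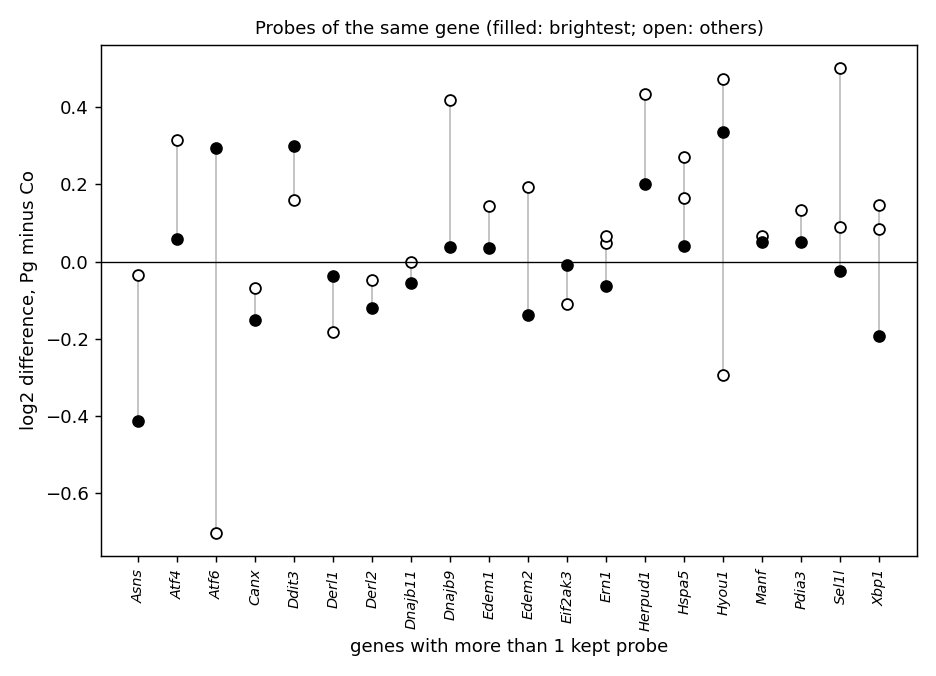
Log2 difference, Pg minus Co, of every kept probe of the members that have more than 1, with the brightest probe marked apart from the others. Probes of Atf6 lie 0.30 above and 0.70 under 0, and the second probes of Atf4, Herpud1, Dnajb9 and Sel1l lie above the brightest ones.

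Other genes of the same pathways, from 9 lists, gave no call at an adjusted p of 0.05 (limma) in any list. Upstream of Atf4, the eIF2 kinases and the subunits of eIF2 and its exchange factor eIF2B were 7 higher and 4 lower (median 0.02), with the heme-regulated kinase Eif2ak1 0.31 higher and Eif2s3x, a subunit of eIF2, 0.24 higher. Of 10 other factors of the ATF4 pathway 9 were measured, 6 higher and 3 lower (median 0.28), with the stress regulator Nupr1 at 0.37 (limma adjusted p = 0.101) and the transcription factor Cebpb at 0.30. Genes of amino acid synthesis and transport were 10 higher and 2 lower of 12 measured (median 0.14), among them the transporter subunit Slc3a2 at 0.25 and the serine enzyme Shmt2 at 0.16. The cytosolic tRNA synthetases were 8 higher and 4 lower (median 0.04), with Mars1 at 0.24 and Iars at 0.18. At an unadjusted p under 0.05 stood 3 of 11, 2 of 9, 4 of 12 and 4 of 12 of these lists, against 19.7% of all genes.

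Within the ER, other folding enzymes were 9 higher and 8 lower of 17 measured (median 0.04). Ero1a, an oxidase that recharges the disulfide isomerases, stood at -0.32 (limma adjusted p = 0.0730). Its paralogue Ero1b, at 0.64 (limma adjusted p = 0.205), was dim, well above background on all 4 Pg arrays and on 0 Co arrays, so it was kept only through the group where it was higher. Glycan trimming and quality control genes were 2 higher and 9 lower (median -0.08), with the glucosidase subunit Ganab at -0.21 and the folding sensor Uggt1 at -0.23. Other degradation genes were 6 higher and 8 lower of 14 (median -0.03), with the ubiquitin-conjugating enzyme Ube2j1 at -0.16. Genes of the translocon, signal peptidase and signal recognition particle were 11 higher and 8 lower (median 0.03), with Srprb, of the particle's receptor, at 0.31 and Srp9 at 0.16. Other signalling and cell death genes of the response were 6 higher and 10 lower of 16 (median -0.14). The first 2 of that list by p were Tmbim6, an ER protein that restrains cell death, at 0.26 and Atf6b, the paralogue of Atf6, at 0.32 (limma adjusted p = 0.0844 and 0.0851). At an unadjusted p under 0.05 stood 3 of 17, 3 of 11, 2 of 14, 2 of 19 and 7 of 16 genes of these lists in turn, against 19.7% of all genes, and the 7 were 3 higher and 4 lower in Pg.

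In the authors' deposited table, 1.53% of its 28250 rows had an adjusted p under 0.05 and none of the 43 rows of the 35 members did, with 6 member rows at an unadjusted p under 0.05, where 22.3% of all rows were. With its columns placed by the array they match, the authors' deposited table gave differences of 0.33 for Ddit3, 0.29 for Atf6, 0.64 for Chac1 and 0.17 for Ppp1r15b, beside 0.30, 0.30, 0.67 and 0.18 above. Other members stood farther off in the authors' deposited table, with Herpud1 at 0.33 (0.20 above), Atf4 at 0.17 (0.06 above), Asns at -0.13 (-0.41 above) and Hyou1, by another probe, at 0.17 (0.34 above).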

How the data were processed

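Soleus RNA of 4 Pg and 4 Co samples was hybridised to Agilent single-colour (Cy3) arrays, grouped by the sample records. Per the file headers, Feature Extraction 11.0.1.1 gave a background-corrected intensity per spot (the submitters' processing notes name version 11.1); probe positions are mm9. The authors' deposited table holds log2 values on an array-normalized scale that is not stated, with log2 differences, p-values and adjusted p-values. It was used as an alternative; its moderated statistic and log odds, a score per row, were computed by the authors and not used.

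Log2 of the processed intensity minus the 75th percentile of each array was computed. Of 56605 probes, 33748 had a signal well above background on 4 or more arrays. Each of the 22271 genes was read by its brightest kept probe and tested with limma 3.58.1 (R 4.3.3), checked on simulated data. Symbols were updated through RefSeq by accession for 32994 probes, and 12867 kept the name of the file. Exact permutation tests used all 70 assignments, two-sided. The number of arrays limits the precision. The records do not say how mice were housed or handled, and a p-value here covers only the variation among these arrays, part of which may be technical.

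All arrays are given one by one for Hspa5, Xbp1, Atf4, Atf6, Ern1, Eif2ak3 and Ddit3, for any member past an adjusted p of 0.05 and for the 3 members of smallest p in each role group; from each other list the 2 genes of smallest p are named, except 1 gene that is not reported here. The members, lists and rules were chosen with earlier results of these data known. Alternatives changed the background correction, scaling, filter, probe rule, variance model, weights, replicate block and samples. Protein sequences of the members were not analysed here.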

Additional observations from a re-analysis of the deposited data

Results flagged for a closer look

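For 8 of the 70 member-by-group sets of 4 arrays, 1 array stood apart from the other 3 by more than Dixon's criterion allows. The criterion is set to flag about 1 in 20 sets of independent values. The members varied together on the same arrays, and the share over all genes was not computed, so the count has no background here. Every one of the arrays that stood apart was numbered 4. In Co they were Co 4 for Creld2 at 2.63 (the next array at 3.04), for Xbp1 at 4.25 (next 4.59) and, in the other direction, for Edem2 at -2.14 (next -3.63). In Pg, array 4 was the low one for Hspa5 at 5.65 (next 6.28), for Dnajc3 at -0.12 (next 0.20), for Manf at 1.52 (next 2.44), for Derl2 at 2.59 (next 2.87) and for Pdia6 at 4.16 (next 4.57). Chaperones and their co-factors make up 4 of the 8.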

How the results depend on the processing

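No member passed an adjusted p of 0.05 in the setting reported, nor in any setting but normexp background correction (1, Ddit3), median centring (4) and no filter on dim probes (1, Ddit3). Over all genes, limma called 453 with normexp (270 higher, 183 lower), 197 with quantile normalization (138 and 59), 2384 with median centring (2288 and 96), 261 where every one of the 8 arrays had to be well above background (145 and 116), 5160 with no filter on dim probes (511 and 4649), 9 with a gene's kept probes averaged (2 and 7), 559 with trended and robust variance (342 and 217), 200 with array weights (109 and 91) and 361 on the values of the authors' deposited table (263 and 98), against 26 (8 and 18); the cause was not tested. Leaving out 1 array at a time gave 2 to 7 genes and 0 members.

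Same-numbered arrays were not taken as pairs, since the records do not say that the number pairs mice. Their deviations over all genes correlated by 0.0648, -0.0578, -0.0409 and 0.233, the last being the highest of any Co and Pg pair. Over the members the values were 0.159, -0.46, 0.661 and 0.481, where arrays of differing number gave -0.554 to 0.703. With the replicate block 0 genes and 0 members passed (limma).

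Under median centring 29 members were higher, where the median difference of all genes was itself 0.138. The median differences there, which include that shift, were 0.12 for degradation, 0.23 for the integrated stress response genes and 0.17 for lectins and isomerases. Chaperones stood at 0.17 (-0.09 to 0.17 when 1 array was left out) and sensors and factors at 0.17 (0.12 on the deposited values). Members higher in Pg numbered 12 to 25 when 1 array was left out, where the median of all genes was -0.0167 to -0.00228. The share of all genes higher in Pg is not given for these settings, so neither count sets the members apart. Members with groups that did not overlap numbered 5 under median centring (23.2% of all genes), 1 with probes averaged (12.4%), 2 to 5 when 1 array was left out (5 without Co 4, 17.5%, and 4 without Pg 2, 16.8%) and 6 with both arrays numbered 4 left out, an alternative added after seeing the data. Without Co 1 and Pg 3, also added later, 0 genes passed, and 5 passed without both arrays numbered 4.

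Signs turned for small differences. Median centring gave Derl2 0.0293, Dnajb11 0.0937, Eif2ak3 0.141, Ern1 0.0855 and Pdia6 0.0442, beside a shift of 0.149 in the median of all genes. Averaged probes gave Atf6 -0.204, Ern1 0.0169 and Xbp1 0.0126. Normexp gave Eif2ak3 0.0228 and Hspa5 -0.0288. Eif2ak3 was 0.0394 with quantile normalization, 0.0329 with array weights, 0.0622 on the deposited values, 0.0103 without both arrays numbered 4 and -0.0572 to 0.0515 when 1 array was left out. The deposited values gave Xbp1 0.0282, and without Co 1 and Pg 3 Ern1 was 0.0463. When 1 array was left out, Dnajb11 ranged from -0.0896 to 0.00781, Pdia6 from -0.189 to 0.00852 and Hspa5 from -0.0885 to 0.198. Ddit3, Hyou1, Ppp1r15b, Herpud1, Chac1 and Asns changed sign in no setting, and neither did Atf4, Canx, Creld2, Derl3 or Pdia4.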
